A study of Mus musculus with 2 samples.

Results

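The genes of the mouse major histocompatibility complex (MHC) that carry H2 symbols, and the genes that cut, transport and load peptides for their products, were followed through a map of H3K27me3 in primary chondrocytes. The members were chosen by name. They were every gene whose symbol begins with H2-, together with Psmb8, Psmb9, Psmb10, Tap1, Tap2, Tapbp, Ciita, Nlrc5, Cd74 and B2m. The RefSeq gene table held 60 such genes among 49960 genes of all kinds. These were 37 class I genes, 12 class II genes, 10 antigen processing genes and H2-Ke6, which has an H2 symbol but belongs to neither class. A member was counted as marked when the deposited annotation joined at least 1 peak within 5 kb to its symbol.

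Chondrocytes, the cells of cartilage, came from the ribs of newborn wild-type CD1 mice, were released from the matrix with collagenase and were kept overnight in culture with serum. Chromatin was cut with an enzyme, precipitated with an H3K27me3 antibody and sequenced as 1 ChIP library, beside 1 library of input DNA from the same kind of cells, with 17237574 and 17004082 tags after filtering. The libraries were assigned by their titles, although the antibody tag of each names the other. Neither had a replicate and no treatment was compared, so every value describes 1 pair of libraries, no test between groups was possible, and how many animals were pooled is not given in the sources used here.

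H3K27me3 is the trimethylation of lysine 27 on histone H3 that Polycomb repressive complex 2 (PRC2) places on chromatin, and it is known for its presence on silent genes. MHC class I molecules pair a heavy chain with β2-microglobulin (B2m) and show peptides from inside the cell to cytotoxic T cells. The immunoproteasome, with the interferon-inducible subunits Psmb8, Psmb9 and Psmb10, cuts such peptides, and the Tap1-Tap2 transporter carries them to the loading complex that Tapbp holds. MHC class II molecules are normally found on professional antigen-presenting cells, and their genes depend on the transactivator Ciita, whose relative Nlrc5 serves class I genes. CD1 is an outbred stock, while the positions used here are those of the C57BL/6J reference, and the H2 genes are among the most variable genes of the mouse. The part of such differences in any value below was not tested.

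Of the 60 members, 28 were marked (46.7%, 95% Wilson interval 34.6 to 59.1%, counting error only), where 20.7% of all 21887 protein-coding genes were. The share was 43.2% in class I (16 of 37), 41.7% in class II (5 of 12) and 70.0% in antigen processing (7 of 10). The intervals of these 3 shares overlapped, at 28.7 to 59.1%, 19.3 to 68.0% and 39.7 to 89.2%. With mean q-values up to 0.01 the marked genes numbered 11 in class I (29.7%), 2 in class II (16.7%) and 3 of 10 in antigen processing, against 5.9% of protein-coding genes at that threshold. At 3.5-fold enrichment or more they numbered 8 (21.6%), 2 (16.7%) and 0, against 5.35%, so antigen processing went from first to last. This last place rests on the exact cut, which the peak joined to both Psmb9 and Tap1 missed narrowly, at 3.499-fold. A peak lay over the body of 22 members (36.7%), against 14.2% of protein-coding genes. A peak lay over the 5′ end of 11 members (18.3%), against 4.45%. This count fell to 6 with mean q-values up to 0.01 (against 1.63% of protein-coding genes), to 5 at 3.5-fold enrichment or more (against 1.43%). By RefSeq gene positions it was 5, but only the 38 members with a RefSeq start window could be counted there. At those positions the 5′ end of H2-K1, not among the 11, was covered, while those of H2-D1 and H2-M5 were not. By the start windows themselves H2-M5 was covered, and of the 11 only H2-D1 had a window that was not. These 11, by the deposited records, were Ciita, Psmb8, H2-Ab1, H2-D1, H2-Q1, H2-Q2, H2-Q10, H2-Bl, H2-T3, H2-T18 and H2-M5, 8 of them class I genes. H2-T3 and H2-T18 are 1 record under 1 peak. Of the 48 protein-coding members alone, 25 were marked (52.1%), and of the 12 pseudogenes 3 were.

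**Figure D1:**
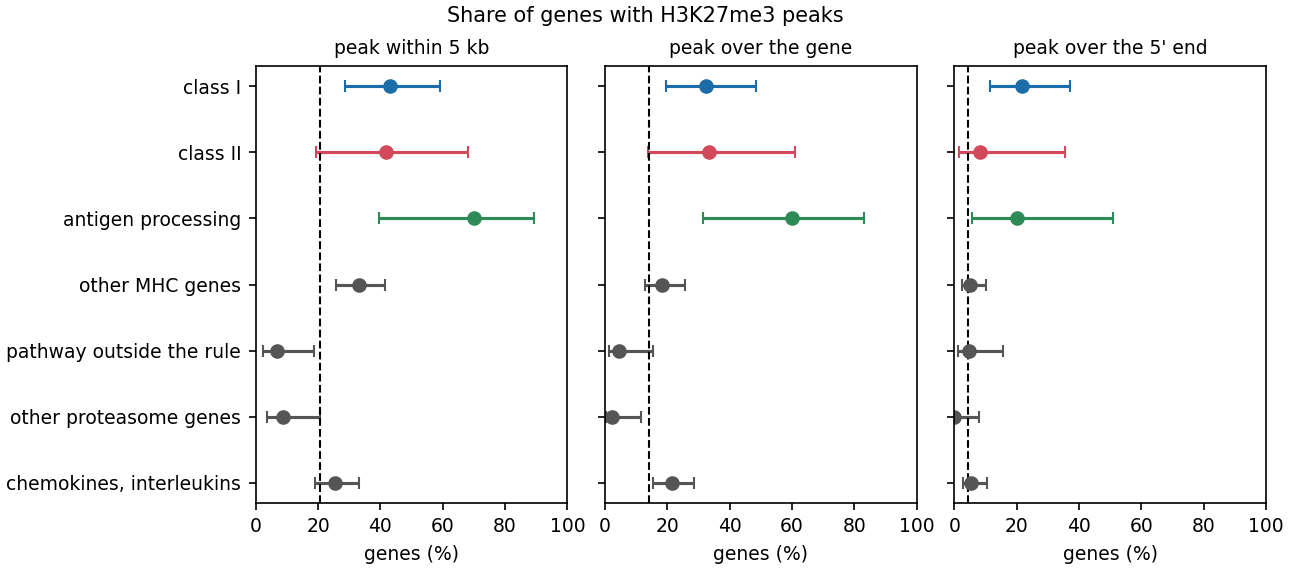
Each panel plots the share of genes (%, points) with its 95% Wilson interval (bars, counting error only) for a peak within 5 kb, over the gene and over the 5′ end, and the dashed line is the share of all protein-coding genes. Antigen processing genes stand at 70.0% in the left panel, while the pathway genes outside the rule stand at 6.98%, below the line at 20.7%. At 3.5-fold enrichment or more 0 antigen processing genes are left, although the peak of Psmb9 and Tap1, at 3.499-fold, only just misses that cut.

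The marked members shared 55 peaks, and no peak was shared between the lists. Class I genes held 28 peaks with 144.3 kb of covered sequence, class II genes 13 peaks with 39.5 kb and antigen processing genes 14 peaks with 43.2 kb. The median peak width was 2.498 kb in class I, 1.99 kb in class II and 1.63 kb in antigen processing, beside 1.27 kb over all 19359 peaks. The median pileup, the mean number of ChIP fragments over a peak, was 12.8, 11.4 and 11.0 fragments in the same order, against 11.04 over all peaks. Median fold enrichment over the input background was 3.34, 3.25 and 3.20, against 3.16. Of the 14 antigen processing peaks, 8 belonged to Ciita and Nlrc5, outside the MHC, with medians of 1.167 kb, 10.78 fragments and 3.061-fold. The 5 peaks of the transport and loading genes had medians of 5.901 kb, 12.85 fragments and 3.418-fold. For the 2 of these also joined to immunoproteasome genes, the medians were 10.15 kb, 12.5 fragments and 3.464-fold. Of the 3 lists, class I had the highest medians of all 3 quantities over all its peaks. Among peaks of at least 3.5-fold enrichment the order of widths turned, with 0.878 kb over 7 class I and 1.992 kb over 3 class II peaks. With mean q-values up to 0.01 it held, with 3.987 kb over 12 class I and 2.785 kb over 2 class II peaks. The ranges overlapped throughout. Pileup ran from 10.16 to 20.8 fragments in class I, from 10.1 to 14.5 in class II and from 9.96 to 14.7 in antigen processing. Width reached 10 kb in 6 of the 55 peaks (10.9%), against 3.46% of all peaks. Member peaks are all joined to a gene, while many of all peaks are not. Of the 11263 peaks joined to a gene, 4.95% reached 10 kb. Their medians were 1.395 kb, 11.15 fragments and 3.18-fold.

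Positions relative to the gene were counted over 30, 14 and 18 pairs of a peak and a gene record in class I, class II and antigen processing. Class I peaks spanned the whole gene in 4 pairs, overlapped the start in 3 and the end in 2, and lay inside in 7, upstream in 5 and downstream in 9. None of the 14 deposited class II pairs spanned a gene, and they were 1 over a start, 4 over an end, 2 inside, 3 upstream and 4 downstream. Antigen processing pairs lay mostly inside the gene (8) or upstream (5), with 3 over the end, 1 over the start and 1 that spanned the gene. The inside pairs belonged to Ciita, Nlrc5 and Tap2 only, most of them to Ciita and Nlrc5, which lie outside the MHC. None lay downstream.

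Start windows from RefSeq, on GRCm38.p6, show what lay under and beside the peaks. They were found for 38 of the 60 members, and 5 of these 38 genes had a window that a peak overlapped, where 5.24% of 27025 genes did. The 5 genes were Psmb8, H2-Q2, H2-Q10, H2-T3 and H2-M5. Their bases before the start are shown with CG dinucleotides in capitals, since CG-dense starts are where PRC2 is often found. H2-D1, whose start in the gene table lay outside its peak, and the stretch between the divergent starts of Psmb9 and Tap1, which lay in a gap between peaks, are shown beside them.
Psmb8, chr17:34197995-34198194, plus strand: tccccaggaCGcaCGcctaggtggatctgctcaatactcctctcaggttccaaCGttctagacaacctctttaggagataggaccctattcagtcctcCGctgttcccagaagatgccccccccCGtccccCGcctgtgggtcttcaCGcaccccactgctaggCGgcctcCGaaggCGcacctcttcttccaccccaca
H2-Q2, chr17:35342107-35342306, plus strand: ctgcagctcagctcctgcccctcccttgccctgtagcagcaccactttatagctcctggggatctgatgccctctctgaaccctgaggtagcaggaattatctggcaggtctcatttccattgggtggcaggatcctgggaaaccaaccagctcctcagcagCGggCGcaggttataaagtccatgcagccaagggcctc
H2-Q10, chr17:35469889-35470088, plus strand: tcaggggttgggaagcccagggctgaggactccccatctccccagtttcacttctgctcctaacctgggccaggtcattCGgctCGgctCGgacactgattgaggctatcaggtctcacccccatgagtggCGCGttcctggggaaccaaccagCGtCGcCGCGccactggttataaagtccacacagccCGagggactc
H2-T3, chr17:36190152-36190351, minus strand: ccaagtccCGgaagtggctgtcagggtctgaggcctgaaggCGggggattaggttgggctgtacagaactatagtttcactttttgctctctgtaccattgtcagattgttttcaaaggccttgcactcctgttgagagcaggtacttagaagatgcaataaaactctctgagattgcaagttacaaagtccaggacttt
H2-M5, chr17:36989534-36989733, minus strand: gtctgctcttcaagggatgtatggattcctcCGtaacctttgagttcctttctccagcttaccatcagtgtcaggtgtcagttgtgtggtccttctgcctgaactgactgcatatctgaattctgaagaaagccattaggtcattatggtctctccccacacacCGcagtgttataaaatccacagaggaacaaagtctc
H2-D1, chr17:35262894-35263093, plus strand: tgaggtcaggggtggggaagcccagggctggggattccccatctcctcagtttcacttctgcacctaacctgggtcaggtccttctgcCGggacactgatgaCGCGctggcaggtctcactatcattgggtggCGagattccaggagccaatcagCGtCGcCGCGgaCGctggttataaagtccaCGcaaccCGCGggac
Psmb9 to Tap1, chr17:34187331-34187555, plus strand: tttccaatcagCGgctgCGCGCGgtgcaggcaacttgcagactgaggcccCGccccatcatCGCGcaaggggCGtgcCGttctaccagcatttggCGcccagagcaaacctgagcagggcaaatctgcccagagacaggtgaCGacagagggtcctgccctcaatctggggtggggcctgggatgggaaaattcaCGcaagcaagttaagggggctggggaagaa

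Counted over the 250 bases before each start, CG dinucleotides numbered 10 in Psmb8 and 12 in H2-Q10, but 2 in each of H2-Q2, H2-T3 and H2-M5. The uncovered windows were no poorer in CG, with 14 in H2-D1, 14 in Tap1 and 12 in Psmb9. The median over the member windows was 3, against 6 over all 32851 windows and 8 over the 1658 windows under a peak. Among the members, class II windows had a median of 2 and windows of the M region class I genes a median of 2, while class I windows outside the M region had 7.5 and antigen processing windows 10. Counts of both the covered and the uncovered member windows thus reached from 2 or fewer to 12 or more.

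Class II promoters are known for an X box, bound by the RFX complex, and a Y box, an inverted CCAAT sequence bound by NF-Y, on which Ciita is assembled. The letters AACNGATG (X box core), searched on both strands of the 250 bases before each start, occurred in 1.99% of all windows and in 4 of 9 class II windows. ATTGG (Y box) occurred in 33.9% of all windows and in 35 of 41 member windows. The windows of H2-Eb1, H2-Eb2, H2-DMb1 and H2-DMb2 held both on the strand of the gene, with 30 or 31 bases from the first letter of the X box core to that of the Y box. A spacing of 30 or 31 bases, chosen because these genes have it, was found in 5 of 32851 windows, and the fifth belonged to BC051142, a neighbour inside the MHC. The 4 sequences are shown with both boxes in capitals, because the first pair of genes was marked and the second was not.
H2-Eb1, chr17:34305717-34305866, plus strand: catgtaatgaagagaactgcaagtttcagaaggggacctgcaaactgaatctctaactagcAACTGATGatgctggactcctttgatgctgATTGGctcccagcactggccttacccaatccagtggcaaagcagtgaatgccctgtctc
H2-Eb2, chr17:34325525-34325674, plus strand: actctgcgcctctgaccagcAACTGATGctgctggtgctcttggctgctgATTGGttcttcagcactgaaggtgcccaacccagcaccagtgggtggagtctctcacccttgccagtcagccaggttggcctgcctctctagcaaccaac
H2-DMb1, chr17:34153041-34153190, plus strand: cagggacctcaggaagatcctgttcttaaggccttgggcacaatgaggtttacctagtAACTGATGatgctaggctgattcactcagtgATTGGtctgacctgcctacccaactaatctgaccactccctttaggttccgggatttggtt
H2-DMb2, chr17:34145099-34145248, plus strand: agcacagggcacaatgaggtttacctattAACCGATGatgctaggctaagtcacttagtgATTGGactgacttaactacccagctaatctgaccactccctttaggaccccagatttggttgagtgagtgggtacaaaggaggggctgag

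The boxes of all 4 genes were free of peaks. H2-Eb2 was marked inside and around the gene, H2-Eb1 was marked downstream only, and the nearest peak lay 13.3 kb from H2-DMb1 and 21.9 kb from H2-DMb2. An interferon element, spelled as GAAA, any 2 bases and GAAA and searched in the same way, stood in the windows of B2m, H2-T22 and H2-T23 and in 2.98% of all windows. A match gives letters in a window and does not show that a factor was bound.

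The MHC interval from Tapbp to H2-M2, chr17:33919478-37483554, held 51 members, of which 23 were marked. It carried 146 peaks over 12.3% of its length, or 41.0 peaks per Mb, where the rest of chromosome 17 had 1.51% covered and 6.73 peaks per Mb and the autosomes 1.90% and 7.81. The cover was uneven. It was 66.9% from Psmb9 to Tap2, 53.8% from H2-D1 to H2-Q10, 37.1% from H2-Ob to H2-Ea, 24.2% from Tapbp to H2-K1 and 23.1% from H2-T24 to H2-T3. From H2-Pb to H2-DMb1, over 86.6 kb, there was no peak. From H2-M10.2 to H2-M10.6 the cover was 1.86%, and from H2-M6-ps to H2-M2 it was 4.74%. Marked and unmarked members therefore lay mostly in blocks along the chromosome.

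**Figure D2:**
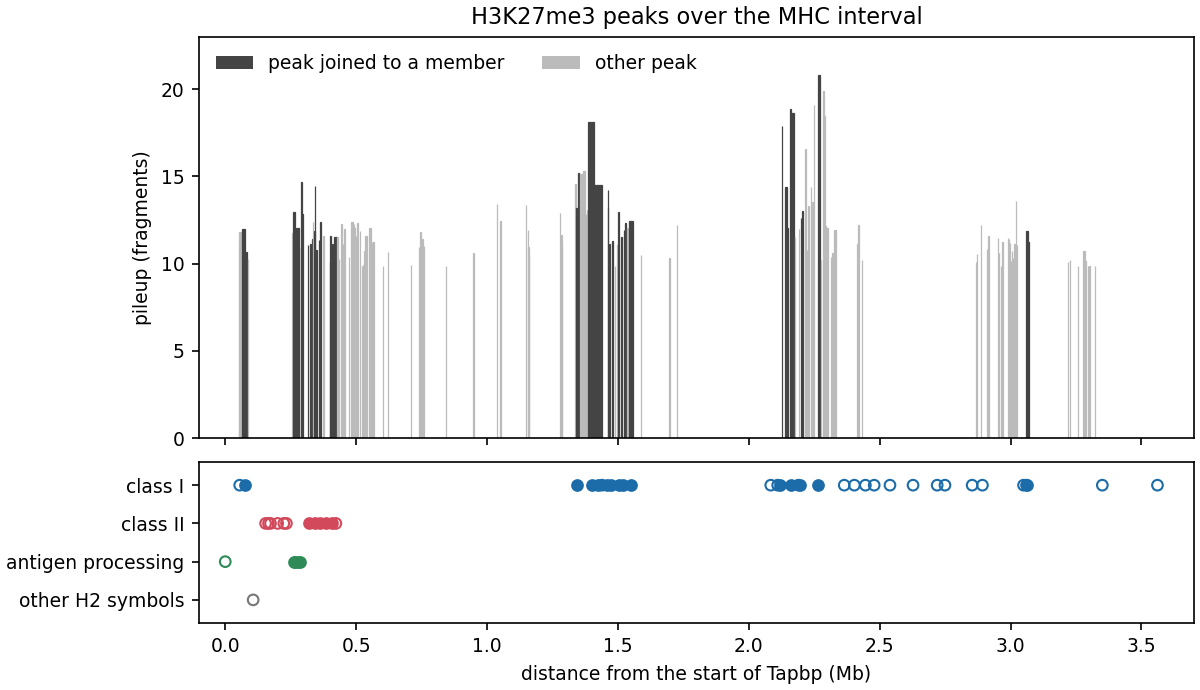
The upper panel plots the 146 peaks of the MHC interval by distance from the start of Tapbp (Mb) and pileup (ChIP fragments), with peaks joined to a member in dark grey, and the lower panel marks the start of each member, filled where marked and open where not. Marked members cluster in a few blocks, and the M region genes to the right are open except at H2-M5.

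Antigen processing genes came first in this order of cover. The immunoproteasome genes Psmb9 and Psmb8 and the transporter genes Tap1 and Tap2 stood side by side over 34.3 kb of chromosome 17, and all 4 were marked. A peak of 7.66 kb covered most of Psmb9, past its 3′ end, with a pileup of 13.0 fragments, a fold enrichment of 3.499 and a mean q-value of 0.00726. A peak of 12.6 kb covered all of Psmb8 and most of Tap1, past its 3′ end, and stopped upstream of Tap2, with a pileup of 12.0 fragments, 3.43-fold enrichment and a q-value of 0.0130. Psmb8 was covered over 100% of its length at its position in the gene table, Tap1 over 85.2%, Psmb9 over 74.9% and Tap2 over 53.5%.

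Within this block the shared start of Psmb9 and Tap1 was bare. The 225 bases between both starts, shown above, lay in a gap of 2987 bp between the 7.66 kb and the 12.6 kb peak, 1329 bp from the first and 1433 bp from the second. Neighbouring peaks of chromosome 17 were a median of 7.69 kb apart. The deposited records of Psmb9 and Tap1 overlap at their starts, and neither start was covered there either. Tap2 had 3 further peaks, inside the gene or over its 3′ end. They were 1.78 kb wide with a pileup of 11.0 fragments, 591 bp with 14.7 fragments and 5.90 kb with 12.9 fragments. The narrowest of them had the highest pileup of all antigen processing peaks and also a background of 3.72 fragments, above that of 98.8% of all peaks.

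**Figure D3:**
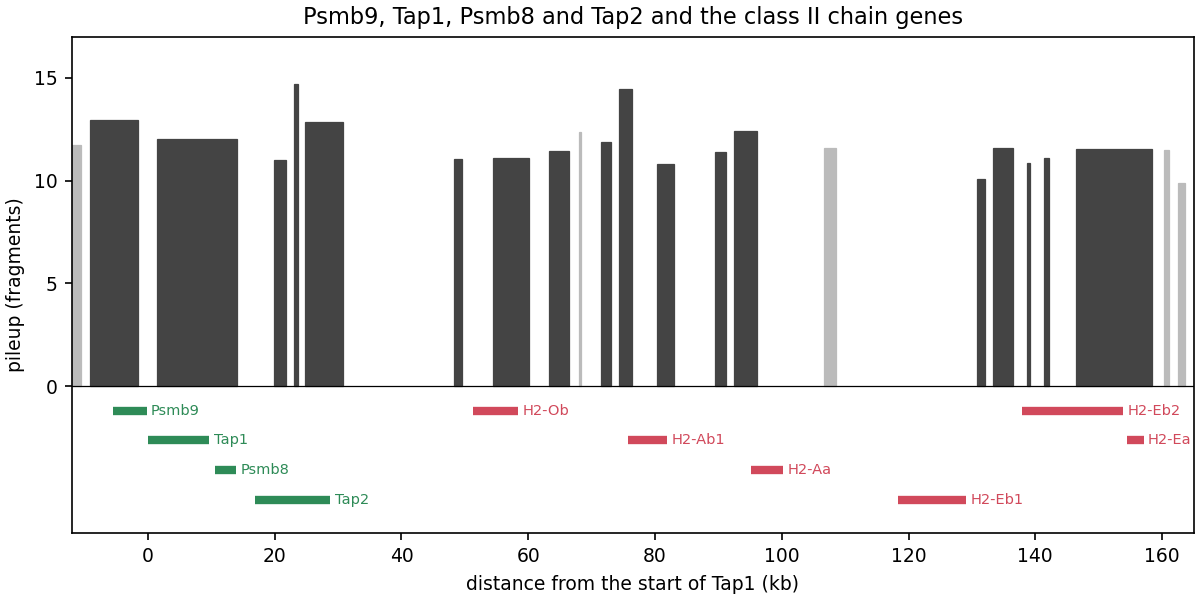
Peaks are plotted by distance from the start of Tap1 (kb) and pileup (ChIP fragments), with peaks joined to a member in dark grey, and the coloured bars below are the genes (green antigen processing, red class II). The start of Tap1 at 0 sits between the 7.66 kb and 12.6 kb peaks, and the tallest class II peak, at 14.5 fragments, lies at the start of H2-Ab1.

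The transactivator genes were both marked, away from the MHC. Ciita on chromosome 16 had 5 peaks. One of 4.42 kb lay over its start, with a pileup of 11.4 fragments, 3.31-fold enrichment and a q-value of 0.0235, and another of 451 bp lay 2989 bp upstream. Both positions hold for the deposited record, which starts at 10488179. The gene table has Ciita from 10480014 to 10531064, and both peaks lie inside it there. The other 3 lay inside the gene, were 2.099 kb, 492 bp and 1.01 kb wide, and had q-values of 0.0897, 0.0890 and 0.0686. Nlrc5 on chromosome 8 had 3 peaks, all inside its deposited record, of 1.48, 1.13 and 1.204 kb with pileups of 11.3, 10.58 and 11.1 fragments. Its longer record in the gene table had 8 peaks within reach and 10.1% of its length covered.

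B2m on chromosome 2, the light chain that every class I heavy chain needs, was marked only by a 2.30 kb peak 2337 bp upstream. That peak was weak, with a pileup of 10.5 fragments, 2.92-fold enrichment and a q-value of 0.0867, and its fold enrichment exceeded that of only 2.32% of all peaks. The antigen processing genes without a peak were Tapbp, Psmb10 and Cd74, the invariant chain of class II molecules, with the nearest peak 42.0, 63.1 and 198 kb away. The third immunoproteasome subunit thus differed from Psmb8 and Psmb9, which lie in the MHC.

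The classical class II chain genes, whose α and β chains form the A and E molecules, were marked in 4 of 5 cases (80.0%, interval 37.6 to 96.4%), against 20.7% of all protein-coding genes. The highest enrichment of any member peak lay over the start of H2-Ab1. This peak was 1.99 kb wide with a pileup of 14.5 fragments, 4.21-fold enrichment and a q-value of 0.000443, the 16th highest fold enrichment of all 19359 peaks, on a background of 2.68 fragments. H2-Ab1 also had a 1.61 kb peak 2540 bp upstream (11.9 fragments, 3.502-fold) and a 2.65 kb peak over its 3′ end (10.8 fragments, 3.10-fold). H2-Aa, its partner, had no peak at its start. A 3.58 kb peak with 12.4 fragments and 3.57-fold enrichment covered its 3′ end, and a 1.799 kb peak with 11.4 fragments lay 3950 bp downstream.

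H2-Eb1 was not covered itself. Its peaks, of 1.27 and 3.22 kb, lay 2228 and 4695 bp downstream with pileups of 10.1 and 11.6 fragments. The wider one also lay 1558 bp upstream of H2-Eb2. H2-Eb2 had 3 more peaks, of 535 and 723 bp inside the gene (10.9 and 11.1 fragments) and of 11.98 kb over its 3′ end (11.6 fragments, 3.36-fold). The 11.98 kb peak, the widest of class II, also covered all of H2-Ea in the gene table, a pseudogene in this reference. The deposited annotation joined no peak to the symbol H2-Ea, so it is not among the 28 marked members.

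Of the class II peptide exchange genes, which edit the peptides of class II molecules, 1 of 5 was marked, with an interval of 3.62 to 62.4% that includes the 20.7% of all protein-coding genes. H2-Ob, one chain of the H2-O molecule, had a 5.67 kb peak over its 3′ part with 11.1 fragments, a 1.30 kb peak 1777 bp upstream with 11.1 fragments, and a 3.13 kb peak 4997 bp downstream with 11.4 fragments. That last distance was just inside the 5 kb limit. Its partner H2-Oa, the H2-DM genes H2-DMa, H2-DMb1 and H2-DMb2, and the pseudogenes H2-Pa and H2-Pb had none, with the nearest peak 13.3 to 78.2 kb away. These 6 genes are the ones in the stretch without a peak. H2-Ke6, next to them, was 18.3 kb from the nearest peak.

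The classical class I heavy chain genes present peptides in nearly all cells. H2-K1 had a peak of 11.2 kb starting 2723 bp past its 3′ end (12.0 fragments, 3.34-fold), a 612 bp peak inside (10.16 fragments) and a 727 bp peak 271 bp before its deposited start (10.7 fragments). The small peaks had q-values of 0.0881 and 0.0653. In the gene table H2-K1 reaches to 34000619, past the start of the 727 bp peak at 34000604, so there its 5′ end was covered, although neither of its RefSeq start windows lies under a peak, and 13.6% of its length was covered. H2-D1 had 3.24, 4.02 and 1.97 kb peaks at its start, over its 3′ end and 3768 bp downstream, with 13.2, 15.2 and 13.4 fragments. Its fold enrichments were 3.07, 3.43 and 3.04, of which the 3.43 was above that of 85.3% of all peaks, on backgrounds of 3.63, 3.72 and 3.74 fragments, above that of at least 98.5% of all peaks. The record of H2-D1 is deposited jointly with H2-L and starts at 35262731, just inside a peak that ends at 35262770, while the gene table puts the start at 35263094. The call of a covered start in H2-D1 therefore rests on the annotation used. The symbol H2-K2 had no deposited peak but was covered over 100% of its length at its position in the gene table, and H2-D4 had none and no place on the primary assembly.

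The Q region, a row of class I-like genes beyond H2-D1, held the widest member peaks. Of its 10 members 8 were marked (80.0%, interval 49.0 to 94.3%), against 20.7% of all protein-coding genes, with H2-Q6 and H2-Q8 as 1 deposited record. H2-Q1 lay under a peak of 21.6 kb with 18.1 fragments, 3.63-fold enrichment and a q-value of 0.000505, and H2-Q2 under the next peak of 29.97 kb with 14.5 fragments and 3.61-fold enrichment, which began 2758 bp downstream of the deposited record of H2-Q1. In the gene table H2-Q1 runs to 35328142, so that peak begins inside it at 35327857, and both peaks cover 81.7% of the gene. H2-Q10, which encodes a class I-like molecule known as secreted by the liver, lay under a 13.5 kb peak with 12.4 fragments and 3.28-fold enrichment. These 3 genes had covered starts.

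Between H2-Q2 and H2-Q10 the peaks were narrower, at most 6018 bp in a peak before H2-Q10 that was joined to no member. H2-Q4 had 482 and 451 bp peaks inside, with 14.2 and 13.2 fragments, and a 961 bp peak 1265 bp downstream with 11.2 fragments. The 482 bp peak had 4.14-fold enrichment, the 20th highest of all peaks. H2-Q5 had a 1.24 kb peak 475 bp downstream (11.3 fragments). H2-Q6 and H2-Q8 share 1 deposited record, which had an 878 bp peak 3004 bp upstream (13.0 fragments, 3.73-fold) and a 2.74 kb peak 3026 bp downstream (11.5 fragments). The latter lay 3332 bp upstream of H2-Q7, which also had an 867 bp peak inside (12.0 fragments) and peaks of 1.86 and 3.98 kb at 1002 and 4555 bp downstream (11.7 and 12.3 fragments). H2-Q3 had no deposited peak, although one lay 1.14 kb from its place in the gene table. H2-Q9 had none and no place on the primary assembly.

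**Figure D4:**
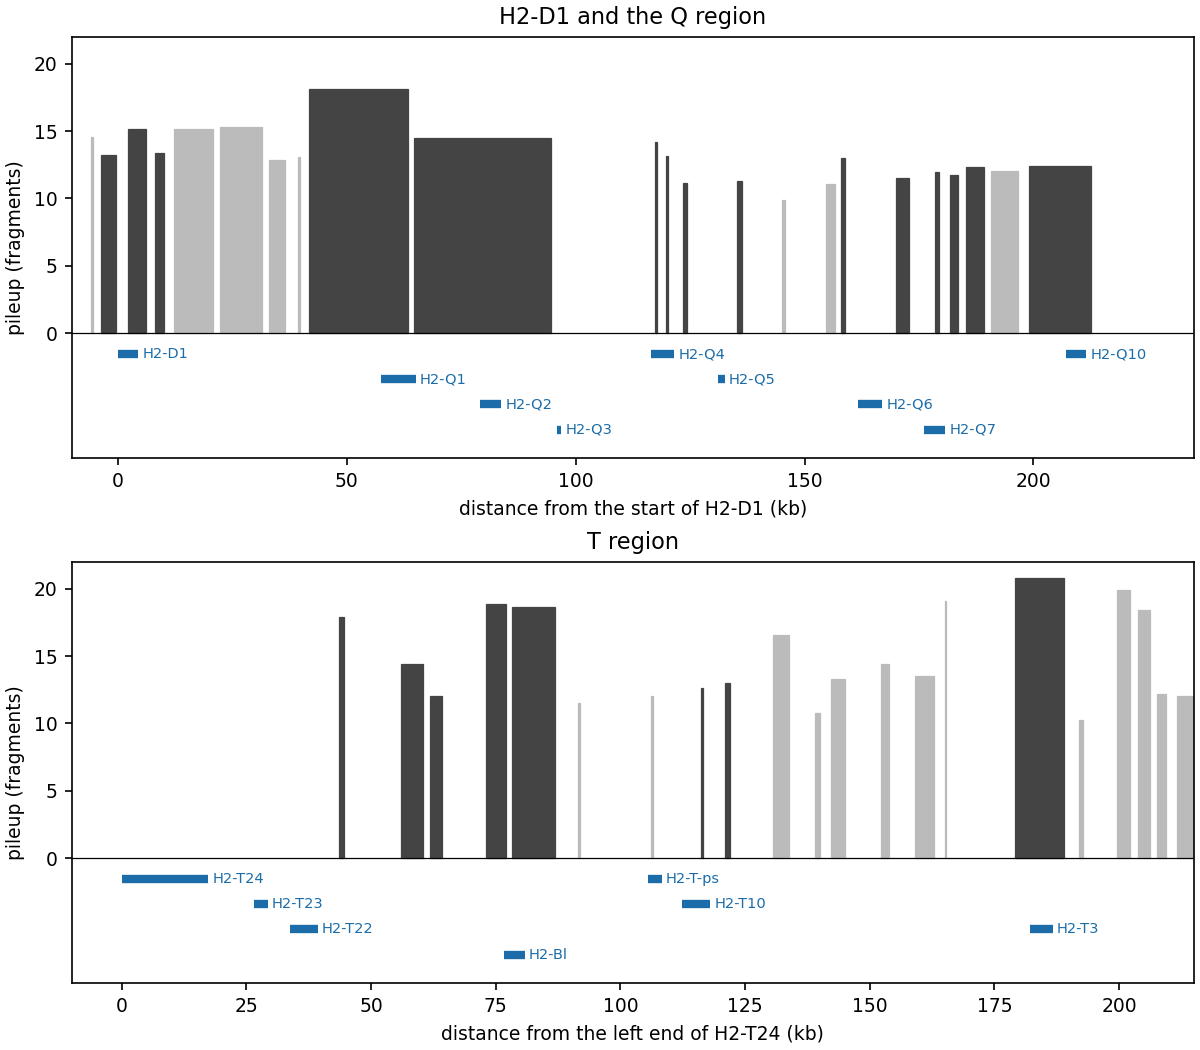
Peaks are plotted by pileup (ChIP fragments) and distance (kb) from the start of H2-D1 in the upper panel and from the left end of H2-T24 in the lower, with peaks joined to a member in dark grey and genes as blue bars. The broad blocks over H2-Q1, H2-Q2 and H2-Q10 contrast with narrower peaks between H2-Q4 and H2-Q7, and the tallest peak, 20.8 fragments, covers H2-T3.

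The T region, with class I-like genes of mostly specialised function, had the highest pileups. Of its 8 members 5 were marked (62.5%, interval 30.6 to 86.3%), against the same 20.7%. H2-T3 and H2-T18, deposited as 1 record, lay under a 9.86 kb peak with 20.8 fragments, 3.81-fold enrichment and a q-value of 7.29e-05, the lowest of any member peak. Its pileup ranked 39 among all peaks. H2-Bl had 8.66 kb over its start (18.6 fragments, 3.33-fold), 3.96 and 2.25 kb inside (18.9 and 12.1 fragments) and 4.43 kb at 1058 bp downstream (14.4 fragments). These positions follow a deposited record of H2-Bl from 36064976 to 36084223. The gene table has it at 36080110 to 36084249, where only the 8.66 and 3.96 kb peaks are within reach. H2-T22, in 1 record with H2-T9, had a 979 bp peak 4235 bp upstream (17.9 fragments), the only marked member whose single peak lay that near the 5 kb limit. H2-T10 had 565 bp inside (12.6 fragments) and 1.02 kb at 2955 bp upstream (13.0 fragments). H2-T23 and H2-T24 had no peak within 14.3 and 26.2 kb, and H2-T-ps had none by symbol although a peak covered 14.5% of it in the gene table.

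These high pileups stood on high backgrounds. The median background was 4.02 fragments in the T region peaks, 3.26 in the classical class I peaks and 2.93 in the Q region peaks, against 2.765 in class II, 2.825 in antigen processing and 2.75 over all peaks. The backgrounds of the 8.66 and 3.96 kb peaks of H2-Bl, 4.90 and 5.06 fragments, exceeded those of 99.7% of all peaks. Ranked by fold enrichment instead, the 3.96 kb peak stood above 68.8% of all peaks, while the H2-T3 peak stayed above 98.9%. ChIP pileup and input background were thus both high over these T region and H2-D1 peaks. Class I genes are a family of related sequences. The longest run of identical bases shared by a pair of class I start windows had a median of 10 bases over 253 pairs, 4 pairs reached 50 bases, the longest run was 86 bases in H2-T23 and H2-T-ps, and 0 pairs reached the tag length of 100 bases. Only 23 class I genes had a start window, and H2-Bl and H2-Q1 were not among them, so these pairs say nothing about those copies. Sequence outside these windows was not compared. How reads that match several copies were placed is not given in the sources used here, so the copy to which class I reads belong is uncertain, and the part of copy number or shared reads in these values was not tested.

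**Figure D5:**
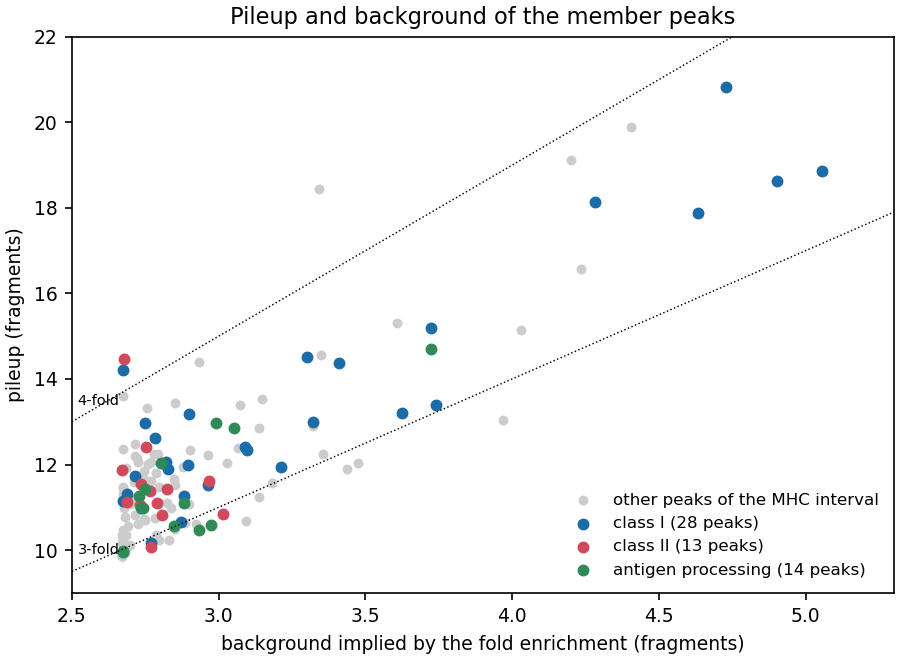
Pileup (ChIP fragments, vertical) is plotted against the input background implied by the fold enrichment (fragments, horizontal) for the 55 member peaks by list and the other peaks of the MHC interval, and the dotted lines are 3-fold and 4-fold enrichment. The class I peaks of highest pileup lie to the right, at backgrounds up to 5.06, while the H2-Ab1 and H2-Q4 peaks lie above the 4-fold line at the left. Their backgrounds are at or beside the smallest of any peak, 2.67 fragments, a floor at which 4955 peaks stand.

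Of the 15 members in the M region only H2-M5 was marked (6.67%, interval 1.19 to 29.8%, which includes the 20.7% of all protein-coding genes). The covered shares of both stretches of this region, 1.86 and 4.74%, were near or above the 1.90% of the autosomes. H2-M5 was marked by a 4.09 kb peak over its start (11.3 fragments, 3.16-fold) and an 8.23 kb peak over its 3′ end (11.9 fragments, 3.37-fold). In the gene table H2-M5 reaches further, to 36997955, past the first of these peaks, although its RefSeq start window lies under it. H2-M4-ps, under a peak in the gene table, had none by symbol. The remaining 13, H2-M1, H2-M2, H2-M3, H2-M6-ps, H2-M9, H2-M10.1, H2-M10.2, H2-M10.3, H2-M10.4, H2-M10.5, H2-M10.5-ps1, H2-M10.6 and H2-M11, lay 5.90 to 238 kb from the nearest peak. H2-M10.6 and H2-M6-ps, at 5.90 and 6.11 kb, were the members just outside the limit. The M10 and M1 products are known as class I-like molecules of vomeronasal neurons, and H2-M3 presents formylated peptides. Across all lists, 25 members on the primary assembly had no peak within 5 kb by position, with a median distance of 34.4 kb.

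The highest fold enrichment of the interval belonged to no member. This peak, chr17:36207275-36209782, between H2-T3 and H2-M10.2, had 18.4 fragments and 4.48-fold enrichment, the 4th highest of all peaks. Of the 136 other protein-coding genes of the interval 45 were marked (33.1%, interval 25.7 to 41.4%), and 21.4% of those elsewhere on chromosome 17 were. The largest summed peak lengths among these neighbours were those of BC051142 (10 peaks, 32.3 kb), and of the butyrophilin-like genes Btnl2 (5 peaks, 12.1 kb) and Btnl4 (2 peaks, 11.1 kb), which lie past the E genes. A peak lay over the 5′ end of 5.15% of the neighbours, near the 4.45% of all protein-coding genes.

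Partners of the members elsewhere in the genome were compared with the 20.7% of all protein-coding genes that were marked. Of 43 genes for class I loading, class I-like molecules outside the MHC, the class II enhanceosome, class II peptide supply and interferon signalling, 3 were marked (6.98%, interval 2.40 to 18.6%). They were Irf8, an interferon regulatory factor of myeloid and B cells, with a 5.61 kb peak over its start (12.7 fragments, 3.52-fold), Nfyc, a subunit of NF-Y, with a 2.65 kb peak outside the gene, and Cd1d2, a lipid-presenting class I-like gene, with a 1.59 kb peak. The 7 loading genes and the 7 peptide supply genes had none. Of 45 other proteasome genes, chosen by symbol and including the thymic Psmb11 and the interferon-inducible Psme1 and Psme2, which are also among the loading genes, 4 were marked (8.89%, interval 3.51 to 20.7%). The largest summed lengths were those of Psmd14 (11.1 kb), Psmd5 (3.60 kb) and Psmb2 (2.88 kb), and no gene of this list had a peak over its 5′ end. The catalytic subunits that the immunoproteasome subunits replace, 3 in number, had no peak. Of 145 chemokine and interleukin genes and receptors, 37 were marked (25.5%, interval 19.1 to 33.2%, which includes 20.7%), led by Ccr9 (22.7 kb), Il10ra (13.4 kb) and Il11ra1 (11.3 kb), although Ccr9 and Il11ra1 were 36.8 and 25.1 kb from a peak at their gene table positions.

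The cell label was checked against marker genes, for which this mark gives presence or absence of a peak and no expression level. None of the 10 chondrocyte genes Col2a1, Acan, Sox9, Col9a1, Col11a1, Matn1, Matn3, Comp, Hapln1 and Cnmd was marked, with an interval of 0 to 27.8% that includes the 20.7% of all protein-coding genes. Of 11 leukocyte genes 6 were marked (54.5%, interval 28.0 to 78.7%), with the largest summed lengths at Flt3 (22.2 kb) and Cd3e (14.5 kb), while Spi1, Cd79a, Adgre1, Csf1r and Ms4a1 were not. Of 4 endothelial genes only Kdr (13.6 kb) was marked, and of 4 muscle genes Pax7 (62.8 kb), Myod1 (8.57 kb) and Myf5 (0.370 kb). With 4 genes each, the last 2 lists have wide intervals, 4.56 to 69.9% and 30.1 to 95.4%. The proportion of cells that carried the mark at any member cannot be read from a pileup over mixed cells.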

How the data were processed

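H3K27me3 ChIP and input DNA of wild-type chondrocytes were sequenced (1 library each). The submitters' processing notes name CASAVA 1.8.4, Bowtie2, MACS2 and mm10, and the file headers name MACS 2.1.0.20140616 in broad mode with a q-value cutoff of 0.05, a fragment length of 294 bp and tags of 100 bp. The authors deposited the pileup as a coverage signal, scaled to the smaller library, and the fold enrichment as a ratio to the input background with 1 added to both. They deposited the p-values and q-values as −log10 values averaged over each peak. Of the 19359 peaks, 11771 had mean q-values up to that cutoff. The others lay above it, up to 0.0991, and the reason was not tested. The tool that joined peaks to genes within 5 kb is not given in the sources used here. Depth was 17237574 filtered ChIP tags and 17004082 filtered input tags.

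From these files, peaks were counted by name (19359, identical in both tables). The background of a peak was computed as (pileup + 1) divided by fold enrichment, minus 1. Of 4987 symbols in the annotation, 4781 were matched to the RefSeq gene table as written and 148 by an older name. Joined symbols were split. Of the rule's symbols, H2-L and H2-T9 stood only in the annotation, and 4 genes (H2-Q8, H2-D4, H2-Q9 and H2-T18) lay off the primary assembly and got no distance. RefSeq start windows (GRCm38.p6) were searched over the 250 bases before the start. Wilson intervals (95%) cover counting error only. Interval code was tested on simulated data. Python 3.11.15, pandas 2.3.3, numpy 2.4.6 and statsmodels 0.14.6 were used.

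Members and lists were chosen with earlier results of these data known. Every marked member was named, unmarked members were named in groups with the range of distances to the nearest peak, and other sets were named by marked genes (pathway) or by the 3 largest summed peak lengths, except that 1 leukocyte gene is not reported here. BC051142 as a holder of both boxes, the X to Y spacing and the peak of 4.48-fold were singled out after their values were seen. Alternatives were stricter peak thresholds, overlap with the gene body, RefSeq positions and the primary assembly alone. No test between groups was made. Columns that belong to samples of another series numbered 0.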

Additional observations from a re-analysis of the deposited data

How the results depend on the processing

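No paired analysis was possible because there were no replicates to pair. Keeping peaks with mean q-values up to 0.01 left 16 marked members, 2 class II genes, 3 antigen processing genes, 6 members with a covered 5′ end and 17 distinct peaks, and moved the median pileup to 14.84 fragments in class I and 13.44 in class II. A fold enrichment of at least 3.5 left 10 marked members, 8 class I genes, 2 class II genes, 0 antigen processing genes, 5 covered 5′ ends and 10 distinct peaks, with a median width of 0.878 kb in class I, against 1.992 kb in class II, and a median pileup of 12.41 fragments in class II. Requiring overlap with the gene body left 35 distinct peaks. RefSeq positions gave 5 covered 5′ ends, where only genes with a start window could be counted. Among those genes H2-K1 was gained and H2-D1 and H2-M5 were lost. Of 52 alternative values, 35 stayed within the limits set, including all 10 with mean q-values up to 0.05. The limit for counts was a factor of 1.5. Medians called moved lay outside the 95% interval of the main median, and the others lay within it. Counting only members on the primary assembly, an alternative added after the data were seen, gave 26 marked members and 14 class I genes. The causes of the other shifts were not tested. The depth of 1 library pair limits what could be called: the lowest pileup of any peak was 9.86 fragments, so a gene without a peak may carry the mark below that level.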
